A study of Mus musculus with 4 samples.

Results

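The genes described here are 9 genes of the smooth muscle contractile apparatus and their transcriptional coactivator, *Acta2*, *Actg2*, *Tagln*, *Myh11*, *Cnn1*, *Des*, *Myocd*, *Mylk* and *Smtn*, in whole mouse embryos with and without *Dyrk2*. They were taken by name alone, as every non-control probe whose gene name in the array annotation equals a member. This gave 22 of the 56604 probes with a value on every array, for 9 of the 24729 named genes. Cy3-labelled RNA was read on 4 Agilent one-colour arrays of 1 slide, where the brightness of a spot with a short DNA probe measures a transcript. The study asked how loss of *Dyrk2*, which encodes a protein kinase, alters gene expression at early organogenesis. All embryos were of the C57BL/6 strain. The groups were WT at embryonic day 8.5 (E8.5), *Dyrk2*-/- at E8.5, WT at E10.5 and *Dyrk2*-/- at E10.5, with 1 array each. The mutant alleles are small deletions made with paired guide RNAs and a Cas9 nickase, of which several lines were established, and which line was used and how many embryos gave each RNA are not given in the sources used here. No group had a replicate, so that a difference between arrays has no replicate check and no test was made between the genotypes at a stage.

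Values are log2 of the processed intensity minus the 75th percentile of the array, so that 0 marks the 75th percentile and every difference is relative to all probes of the array. A difference was called at 1.5-fold or more, the fold threshold of the study, and a gene is given by its brightest probe. The study also set a Z-score limit for its gene ontology analysis. That limit was not used here, so the numbers called are not comparable with its own. A probe was compared where the scanner software marked it well above background for either array of the pair. Repeated spots of a probe had a median SD of 0.09 (WT) and 0.12 (mutant-labelled) at E8.5, then 0.07 and 0.08 at E10.5, a spread that leaves out the difference between embryos. In RNA of whole embryos, fewer smooth muscle cells and less transcript per cell cannot be told apart.

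*Dyrk2* transcript itself was not lower on the arrays labelled *Dyrk2*-/-. Its brightest probe was 1.62-fold higher there at E8.5 (0.06 in WT against 0.76) and 1.57-fold at E10.5 (−0.31 against 0.34). Its other probe was 1.02-fold and 1.21-fold higher. The transcript therefore gave no check of the genotype. The study reported loss of the Dyrk2 protein in tissues of mutant embryos at a later stage, which were not those read here. The arrays are called mutant-labelled or *Dyrk2*-/- below by the submitters' label, and all directions between genotypes depend on it. The arrays also differed in blood and sex-linked transcripts. All 11 listed erythroid genes were 1.5-fold or more higher on the mutant-labelled array at E8.5 and 7 of 11 at E10.5. Their summed scaled intensities were 17.4 and 384 at E8.5 (brightest probe *Hbb-bh1*), then 1377 and 1603 at E10.5 (brightest probe *Hbb-y*), WT first. *Xist* was read on the mutant-labelled E10.5 array alone. The part of these differences in the values below was not tested.

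Smooth muscle cells of the gut, airways and vessels contract when calcium and calmodulin activate myosin light chain kinase, which phosphorylates the light chains of smooth muscle myosin and lets it pull on actin filaments. Most genes of this apparatus are transcribed through serum response factor, which binds CArG boxes, and its coactivators, among them myocardin, which is restricted to smooth and cardiac muscle. At early organogenesis, smooth muscle is only beginning to form around the aorta and the gut, and the tubular heart transiently expresses several of the same genes, including *Acta2*, *Tagln* and *Cnn1*. Their signal in a whole embryo is therefore not specific to smooth muscle.

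Of the 22 member probes, 16 were well above background on all 4 arrays, 2 on 1 array and 4 on none. The brightest probe of each of the 9 genes was among the 16, so that every member was measured in every comparison. *Acta2* and *Myh11* have 4 probes each, *Mylk* has 5, *Cnn1*, *Des* and *Smtn* have 2 each, and *Actg2*, *Tagln* and *Myocd* have 1 each. Along the 4 arrays the brightest probes ranged least for *Mylk* (0.27 between its highest and lowest array), *Tagln* (0.36) and *Des* (0.47), and most for *Myocd* (2.57), *Acta2* (1.34) and *Cnn1* (1.04). The array with the highest value was that labelled *Dyrk2*-/- at E8.5 for *Acta2*, *Actg2*, *Tagln*, *Myh11*, *Mylk* and *Smtn*, WT at E8.5 for *Cnn1* and *Myocd*, and WT at E10.5 for *Des*.

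**Figure D1:**
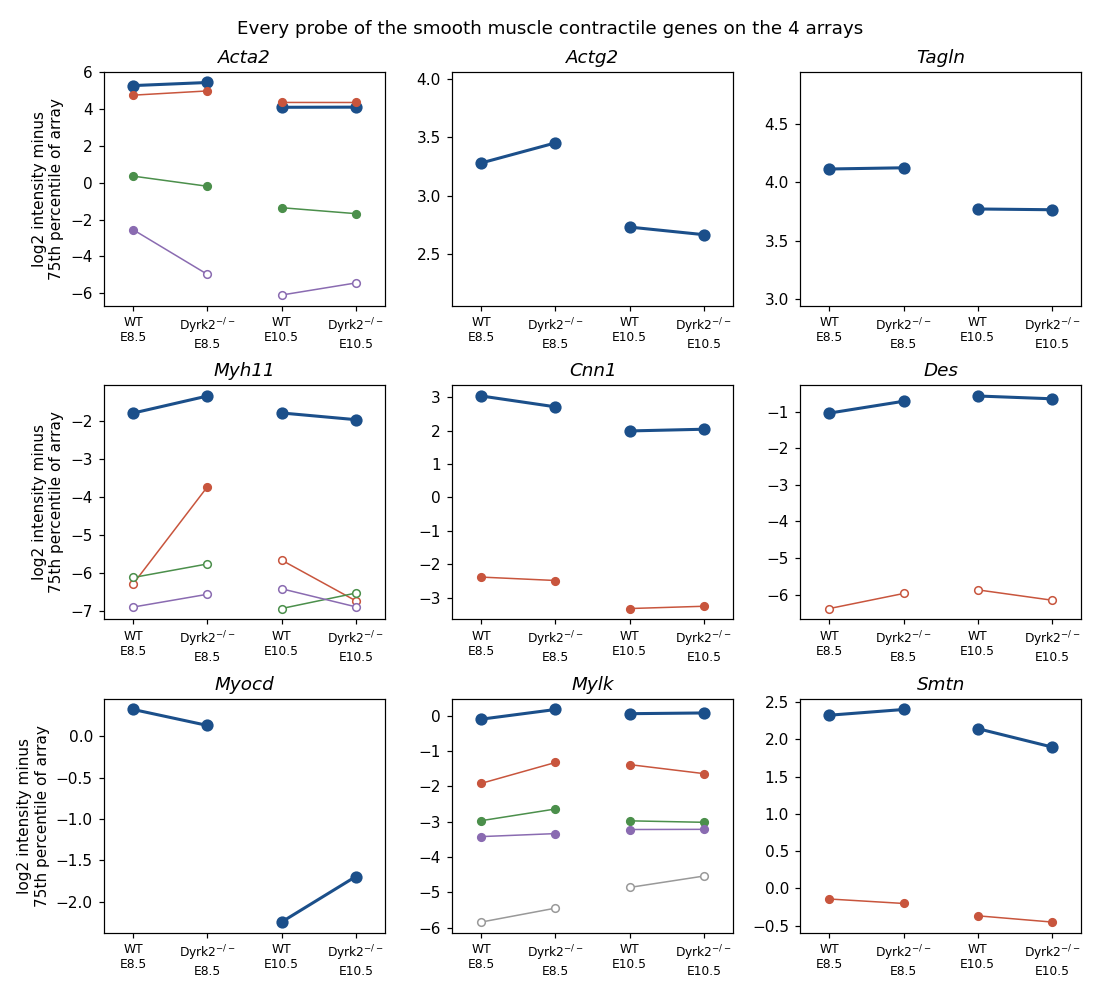
Log2 intensity minus the 75th percentile of the array (vertical axis, of a different span for each gene) of every probe of the 9 genes on the 4 arrays, with 1 colour for each probe of a gene, the brightest probe in the thick line, filled points well above background and open points not, and lines joining the genotypes of a stage. The brightest *Acta2*, *Actg2*, *Tagln*, *Cnn1*, *Myocd* and *Smtn* probes were lower on both E10.5 arrays than on both E8.5 arrays, and 3 *Myh11* probes lay below background on 3 or 4 arrays.

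Between the genotypes, none of the 9 genes was called at either stage at its brightest probe. The mean over the probes of a gene gave *Acta2* as lower and *Myh11* as higher at E8.5. Each of these means held a probe detected on 1 array of the pair alone (log2 ratios −2.42 and 2.54), so no difference is read from them. The probes detected on both arrays had ratios from −0.55 to 0.23 for *Acta2* and 0.45 for *Myh11*. At E8.5, 0 of 9 genes differed 1.5-fold or more, where 9.66% of 15789 genes did, 4.23% higher and 5.43% lower. Their log2 ratios (*Dyrk2*-/- against WT) ran from −0.32 (*Cnn1*) to 0.45 (*Myh11*) with a median of 0.17, beside −0.03 over all genes. Of the 9, 7 were above 0, where 7129 of 15789 genes were. At E10.5, 0 of 9 genes were called, where 6.77% of 16122 genes were, 2.76% higher and 4.01% lower. The ratios ran from −0.25 (*Smtn*) to 0.55 (*Myocd*) with a median of −0.01, beside −0.02 over all genes. Over all probes rather than genes, 3 of 18 measured member probes were called at E8.5 (11.8% of 32015 probes), 2 higher (5.51%) and 1 lower (6.32%), and 0 of 16 at E10.5 (7.99% of 32884, 3.77% higher and 4.22% lower). The 3 are minor probes of *Myh11*, *Mylk* and *Acta2*, described below. The sign of the E8.5 median depended on the scaling. Relative to the spike-in control probes all 9 genes were lower on the mutant-labelled array at E8.5, with *Cnn1* and *Myocd* called. Of the 32015 probes 14881 were called under that scaling, 14461 of them lower, and the median log2 ratio of all probes shifted by −0.55. Without scaling 6 of 9 genes were lower, with a shift of −0.26 over all probes. Both counts of lower members thus include a shift shared by all probes.

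Between the stages, 6 of 9 members were below 0 in WT and 8 of 9 in *Dyrk2*-/-, where 9221 of 16455 and 8970 of 16210 genes were. On the WT arrays 3 of 9 genes, *Myocd*, *Acta2* and *Cnn1*, were 1.5-fold or more lower and 0 higher, where 37.6% of 16455 genes were called, 19.3% higher and 18.3% lower. On the mutant-labelled arrays 5 of 9 were lower, those 3 with *Actg2* and *Myh11*, and 0 higher, where 31.4% of 16210 genes were called, 17.1% higher and 14.3% lower. Of the member probes 6 of 17 were lower in WT (35.7% of 33491 called, 18.3% higher and 17.4% lower) and 9 of 17 in *Dyrk2*-/- (31.4% of 32910 called, 17.0% higher and 14.4% lower), and 0 higher. The median log2 ratio of the members was −0.34 in WT and −0.62 in *Dyrk2*-/-, beside −0.09 and −0.07 over all genes. In the limma fit of genotype and stage over all 4 arrays, 5 of 9 members fell with stage at an adjusted p under 0.05, and 0 rose, where 35.3% of 32289 probes were called, 15.7% up and 19.6% down. With genotype 0 of 9 differed in limma, where 0.0186% of probes did, 0.0124% higher and 0.00619% lower. The unadjusted p of limma for the genotype was under 0.05 for 1592 of 32289 probes and for 0 of the 9 brightest member probes. The stage calls depended on the scaling: relative to the spike-in control probes limma called *Myocd* alone of the 5, and 5 of 9 members were above 0 in *Dyrk2*-/-, *Tagln* among them (log2 ratio 0.28). *Acta2* lost the limma call there but was 1.5-fold or more lower in both genotypes under all 6 scalings.

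**Figure D2:**
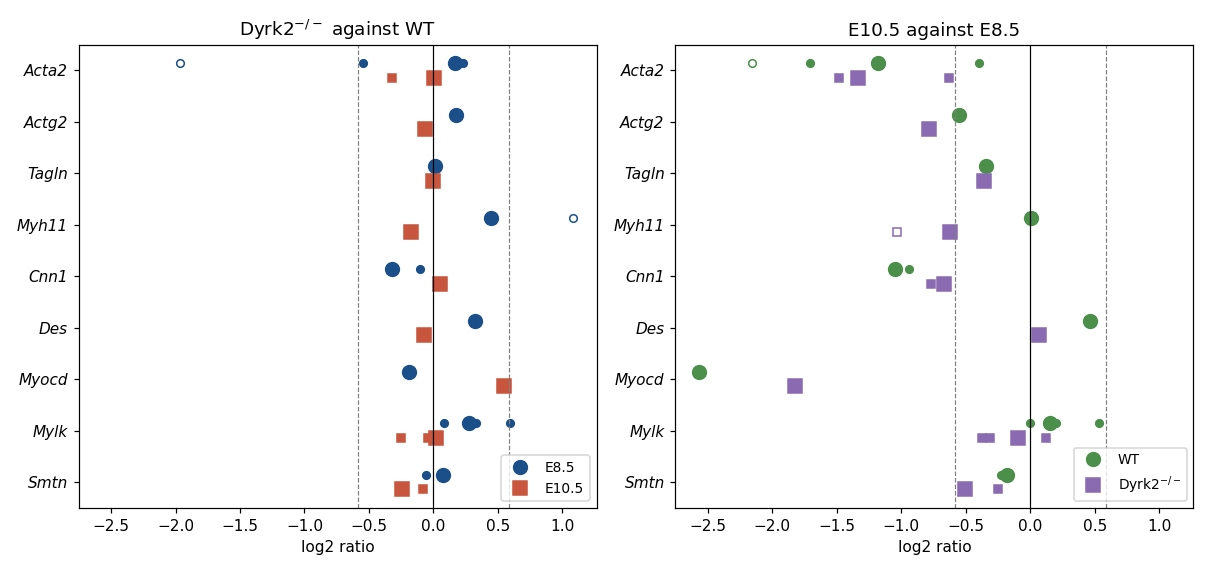
Log2 ratios of every member probe detected on 1 array of the pair or more, *Dyrk2*-/- against WT at each stage (left) and E10.5 against E8.5 in each genotype (right), with large symbols for the brightest probe, open symbols at the bound for probes detected on 1 array of the pair, and dashed lines at 1.5-fold. The large symbols on the left all lie between the dashed lines, and on the right *Myocd*, *Acta2* and *Cnn1* lie below the lower line in both genotypes.

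The smooth muscle actins were among the members that fell with stage. *Acta2*, which encodes alpha smooth muscle actin, had values of 5.26 in WT and 5.43 in *Dyrk2*-/- at E8.5, then 4.09 and 4.09 at E10.5 at its brightest probe (chr19:34316060-34316119 of mm9, minus strand). Both E8.5 arrays were above both E10.5 arrays, while the genotypes lay within 0.17 of each other at E8.5 and 0.01 at E10.5. The signal was 2.26-fold lower at E10.5 in WT and 2.53-fold lower in *Dyrk2*-/-, and limma gave a stage difference of −1.26 (SE 0.12, adjusted p = 5.98e-05), in both genotypes in the same direction. A probe in the coding sequence, split by an intron (chr19:34322995-34326249), had values of 4.74, 4.97, 4.35 and 4.35 in the same order of arrays, which is kept for all sets of 4 values. It had the same order of stages with a smaller stage difference, −0.51 in limma (adjusted p = 0.0101), 1.31-fold lower in WT and 1.54-fold in *Dyrk2*-/-. Another probe of the transcript (chr19:34315697-34315756) had 0.35, −0.20, −1.36 and −1.68, and was the only *Acta2* probe above background on all 4 arrays that was lower on the mutant-labelled arrays at both stages, by 1.46-fold and 1.25-fold. Its limma difference with genotype was −0.44 (unadjusted p = 0.0181, adjusted p = 0.883). The last probe, designed on a cDNA clone, was detected in WT at E8.5 alone, at −2.56, which was 3.91-fold or more above the mutant-labelled array and 4.47-fold or more above WT at E10.5. Thus the *Acta2* probes did not share a direction between genotypes at E8.5.

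*Actg2*, gamma smooth muscle actin of the gut, had 3.28, 3.45, 2.73 and 2.67 at its probe. It was highest on the E8.5 mutant-labelled array and lowest on the E10.5 mutant-labelled array, 1.46-fold lower with stage in WT and 1.72-fold in *Dyrk2*-/-, and fell in limma by 0.67 (SE 0.12, adjusted p = 0.00322). The fold in *Dyrk2*-/- passed the threshold under 4 of 6 scalings. The coding sequences of the actins are nearly alike, so that a probe can bind transcripts of several of them. The *Acta2* probe in coding sequence is shown since it gives the stretch that was read.
*Acta2* coding probe: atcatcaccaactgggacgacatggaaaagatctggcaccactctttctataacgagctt

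The other actins give the background to these values. *Actc1* and *Acta1*, the cardiac and skeletal muscle actins, had 4.89, 5.24, 4.21 and 4.16 and 1.72, 2.23, 0.98 and 0.49. Both fell with stage in limma, by 0.88 (adjusted p = 0.000973) and 1.24 (adjusted p = 0.00191), and were lower at E10.5 in each genotype. *Actb*, a cytoplasmic actin of all cells, had 8.14, 8.33, 8.27 and 8.18 and a stage difference of −0.01 in limma (adjusted p = 0.956). *Actg1*, the other cytoplasmic actin, had 7.19, 7.24, 6.81 and 6.93 at its brightest probe and fell by 0.35 (limma, adjusted p = 0.0362). The lower E10.5 signal was thus shared by the named actins other than *Actb*, and the sign for *Actg1* in *Dyrk2*-/- turned under the spike-in scaling.

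*Myh11*, the smooth muscle myosin heavy chain, which marks differentiated smooth muscle most strictly, was read at few of its probes. Its brightest probe was designed on a cDNA clone and not on the RefSeq transcript (chr16:14249625-14249684, minus strand). It had −1.80 in WT and −1.36 in *Dyrk2*-/- at E8.5, then −1.80 and −1.98 at E10.5, so that the E8.5 mutant-labelled array stood apart from the other 3. Of the 3 probes of the RefSeq transcripts, 2 were well above background on no array, and the other, near the end of the coding sequence (chr16:14195223-14198147), only on the E8.5 mutant-labelled array. There it was at −3.74, 2.12-fold or more above WT, and 2.05-fold or more above the mutant-labelled array at E10.5. *Myh11* was 1.54-fold lower at E10.5 in *Dyrk2*-/- and without a difference in WT (log2 ratio 0.00) at the brightest probe, and limma's stage difference of −0.31 was not called (adjusted p = 0.260). The lower value in *Dyrk2*-/- passed the fold threshold under 3 of 6 scalings and turned under the spike-in scaling. On 3 of the 4 arrays *Myh11* was thus read at the clone probe alone. The 3 RefSeq probes are shown since they read the mature transcript.
*Myh11* probe above background on 1 array: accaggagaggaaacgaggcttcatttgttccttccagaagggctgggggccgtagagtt
*Myh11* probe above background on no array: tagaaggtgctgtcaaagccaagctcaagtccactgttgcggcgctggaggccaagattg
*Myh11* other probe above background on no array: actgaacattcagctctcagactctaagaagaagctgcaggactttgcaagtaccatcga

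*Mylk*, which encodes myosin light chain kinase, differed little between arrays at its brightest probe. Its brightest probe (chr16:34996839-34996898, plus strand) had −0.10, 0.17, 0.05 and 0.07 on the WT and *Dyrk2*-/- arrays at E8.5 and E10.5. The stage difference of 0.03 was not called in limma (adjusted p = 0.897). A probe farther upstream in the transcript (chr16:34986620-34986679) had −1.92, −1.33, −1.39 and −1.64, lowest on the WT array at E8.5. It was 1.51-fold higher on the mutant-labelled array at E8.5 and 1.19-fold lower at E10.5, and the first of these just passed the threshold. Of the 3 remaining *Mylk* probes 2 were well above background on all arrays, with log2 ratios of 0.33 and 0.09 at E8.5, then −0.04 and 0.01 at E10.5, and 1 on none. All 4 measured probes were higher on the mutant-labelled array at E8.5, and the sign of the brightest was negative there under the spike-in scaling. The locus also gives rise to telokin, a short product of its 3′ end with a promoter of its own, and the probes were not assigned to these products. The 2 probes named lie in the coding sequence.
*Mylk* brightest probe: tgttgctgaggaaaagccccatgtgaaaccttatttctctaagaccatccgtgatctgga
*Mylk* upstream probe: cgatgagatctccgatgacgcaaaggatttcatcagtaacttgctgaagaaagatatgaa

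Of the actin-binding members, *Tagln* and *Cnn1* fell with stage. *Tagln*, transgelin or SM22, an early marker of smooth muscle and of the tubular heart, had 4.11, 4.12, 3.77 and 3.76 (chr9:45738097-45738156, minus strand). The genotypes were within 0.01 of each other at both stages. The signal was 1.27-fold lower at E10.5 in WT and 1.28-fold in *Dyrk2*-/-, under the fold threshold, and fell by 0.35 in limma (SE 0.11, adjusted p = 0.0408). This was past the threshold by little, and not past it under 5 of the alternatives tried, and the sign in *Dyrk2*-/- turned under the spike-in scaling.

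*Cnn1*, calponin, which binds actin and inhibits the myosin ATPase, had 3.03 in WT and 2.71 in *Dyrk2*-/- at E8.5, then 1.99 and 2.04 at E10.5 (chr9:21913058-21913117, plus strand). It was 2.06-fold lower at E10.5 in WT and 1.59-fold in *Dyrk2*-/- (limma −0.86, SE 0.14, adjusted p = 0.00137). The WT fold passed the threshold under all 6 scalings and the other under 2 of 6. The other *Cnn1* probe, in the coding sequence (chr9:21909945-21910166), had −2.38, −2.48, −3.32 and −3.25. It gave the same order of stages, 1.92-fold and 1.71-fold lower at E10.5, with a limma difference of −0.86 (adjusted p = 0.0168). *Cnn1* was 1.25-fold lower on the mutant-labelled array at E8.5 at the brightest probe and 1.07-fold at the other, and 1.04-fold and 1.05-fold higher at E10.5. With *Myocd*, it was 1 of the 2 members lower there at E8.5 under each of the 6 scalings.

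*Smtn*, smoothelin, found on the actin filaments of contractile smooth muscle, had 2.32, 2.40, 2.14 and 1.90 (chr11:3417530-3417589, minus strand), and −0.14, −0.20, −0.37 and −0.45 at its other probe (chr11:3421838-3421897). The mutant-labelled array at E10.5 was the lowest at both. The limma differences with stage, −0.34 and −0.24, were not called (adjusted p = 0.0735 and 0.221). *Smtn* was 1.19-fold and 1.06-fold lower on the mutant-labelled array at E10.5 at the 2 probes, under the fold threshold.

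*Des*, desmin, the intermediate filament protein of all muscle types, was the only member above 0 with stage in both genotypes. Its brightest probe (chr1:75363404-75363629, plus strand) had −1.04 in WT and −0.72 in *Dyrk2*-/- at E8.5, then −0.57 and −0.65 at E10.5. WT at E8.5 was the lowest array. *Des* was 1.38-fold higher at E10.5 in WT and 1.05-fold in *Dyrk2*-/-, and above 0 in both genotypes under all 6 scalings. It reached 1.5-fold in WT without scaling and in *Dyrk2*-/- under the spike-in scaling. The limma difference of 0.27 was not called (adjusted p = 0.230). The other *Des* probe was well above background on no array.

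*Myocd*, the coactivator, had the largest stage difference of the members. It had 0.32 in WT and 0.13 in *Dyrk2*-/- at E8.5, then −2.24 and −1.70 at E10.5 at its probe (chr11:64991930-64991989, minus strand). Both E10.5 arrays were far below both E8.5 arrays, 5.93-fold in WT and 3.55-fold in *Dyrk2*-/- (limma −2.20, SE 0.19, adjusted p = 4.56e-05). It stayed past the threshold of limma under every alternative tried. Between the genotypes *Myocd* was 1.14-fold lower on the mutant-labelled array at E8.5 and 1.46-fold higher at E10.5, the largest E10.5 ratio of the members and under the fold threshold. Under the spike-in scaling both of these were called, 1.5-fold or more lower at E8.5 and higher at E10.5.

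Serum response factor and its other cofactors were followed as well. *Srf* had 2.67, 2.75, 2.03 and 1.97, lower on both E10.5 arrays, and fell by 0.71 in limma (adjusted p = 0.0023). *Mrtfa* and *Mrtfb*, the actin-regulated cofactors, had 2.28, 2.35, 2.56 and 2.42 and 2.60, 2.83, 2.51 and 2.62 at their brightest probes. Their stage differences of 0.18 and −0.15 were not called in limma (adjusted p = 0.307 and 0.364). *Foxf1*, a factor of gut and lung mesenchyme from which visceral smooth muscle forms, had 3.61, 3.62, 2.16 and 2.30. It fell with stage by 1.39 (limma, adjusted p = 4.05e-05), 2.73-fold lower in WT and 2.51-fold in *Dyrk2*-/-, with log2 ratios between genotypes of 0.01 at E8.5 and 0.13 at E10.5. No genotype difference of these 4 genes reached 1.5-fold at the brightest probe, and their signs changed with the scaling. The study reported lower *Foxf1* in mutant embryos at E10.5 by quantitative PCR with replicates, which the single arrays read here did not show. It also reported lower *Myocd* and alpha smooth muscle actin transcripts in mutant lungs of a later stage.

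The wider cytoskeleton of smooth muscle was read too. Of 18 listed genes of the smooth muscle cytoskeleton 17 were measured, *Lmod1* being below background on all arrays, and 0 were called between the genotypes at either stage, with medians of 0.01 and −0.07. With stage, 4 of the 17 were lower in WT and 5 in *Dyrk2*-/- and 0 higher in either. *Fhl2*, a LIM-only coregulator, had 2.79, 2.24, 1.27 and 1.19 and was 2.88-fold and 2.08-fold lower at E10.5. *Tpm1*, a tropomyosin, had 4.70, 4.49, 3.78 and 3.76 and was 1.89-fold and 1.65-fold lower. Both lay lower on both E10.5 arrays than on both E8.5 arrays. In limma 6 of the 17 fell with stage and 0 rose. These counts changed under the spike-in scaling, with 8 of 17 lower on the mutant-labelled array at E8.5, and with 3 higher and 0 lower between stages in *Dyrk2*-/- (median 0.30). Under that scaling 14461 of 32015 probes were lower at E8.5. Between stages in *Dyrk2*-/- 16234 of 32910 probes were higher and 1364 lower.

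Of 13 genes that signal to the contractile apparatus, *Ppp1r12a*, the targeting subunit of myosin phosphatase, was the only gene called between the genotypes. Of 12 measured at E8.5 the spike-in scaling made 5 lower and no scaling 2, beside 14461 and 4723 of 32015 probes. *Ppp1r12a* had 3.44 in WT and 2.59 in *Dyrk2*-/- at E8.5, then 3.37 and 3.29 at E10.5. The E8.5 mutant-labelled array was thus 1.81-fold lower than WT and stood below the other 3. It was called at E8.5 under all 6 scalings. With stage, *Kcnmb1*, a potassium channel subunit of vascular smooth muscle, and *Agtr1a*, an angiotensin receptor, fell by 1.59 and 1.61 in limma (adjusted p = 0.0025 and 0.000109), while *Pln*, phospholamban, was below background at E8.5 and well above it on both E10.5 arrays, at least 5.12-fold higher in WT and 3.78-fold in *Dyrk2*-/-.

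Of 21 regulators of smooth muscle formation, 1 was called at E8.5 and 0 at E10.5 between the genotypes. That gene, *Pdgfb*, the ligand that recruits mural cells to vessels, had −1.10 in WT and −0.38 in *Dyrk2*-/- at E8.5, 1.64-fold higher, and 0.61 and 0.45 at E10.5. It was under the threshold without scaling and under the spike-in scaling, where 2 and 5 other regulators were lower at E8.5. Of 32015 probes 4723 and 14461 were lower there. With stage the regulators went in both directions, 7 higher and 6 lower in WT and 4 higher and 3 lower in *Dyrk2*-/-. *Wnt7b* and *Tbx18* were 6.52-fold and 3.13-fold higher at E10.5 in WT and 4.58-fold and 2.85-fold in *Dyrk2*-/-. In limma 8 of 21 rose and 7 fell with stage. Under the spike-in scaling 11 were higher and 1 lower in *Dyrk2*-/-, where 16234 of 32910 probes were higher and 1364 lower.

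Markers of other cells that express these genes were read beside them. Of 18 cardiac muscle genes, 10 were 1.5-fold or more lower at E10.5 in WT and 10 in *Dyrk2*-/-, with medians of −0.72 and −0.65, and 3 and 2 were higher. In *Dyrk2*-/- under the spike-in scaling 1 was lower and 4 were higher, where 1364 of 32910 probes were lower and 16234 higher. Their summed scaled intensity was 314.5 and 323.4 at E8.5, then 195.0 and 195.1 at E10.5 (WT and *Dyrk2*-/-), with the probe of *Myh6* or *Myl4* as the brightest. This sum was lower at E10.5 in both genotypes, and the part of heart tissue in the members' stage difference was not tested. *Nkx2-5*, a cardiac transcription factor, was 4.83-fold and 3.79-fold lower at E10.5, while *Nppa*, the atrial natriuretic peptide, was 14.1-fold and 7.95-fold higher. At E8.5, *Myl2*, *Nppb* and *Tnni3* were the cardiac genes called, 1.76-fold, 1.67-fold and 1.53-fold higher on the mutant-labelled array, and 0 of 18 were called at E10.5. None of these 3 was called without scaling or under the spike-in scaling, where 2 and 8 other genes of the list were lower at E8.5. Of 32015 probes 4723 and 14461 were lower under these scalings.

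Mural and skeletal muscle markers went in both directions with stage. Of 10 endothelial and pericyte genes 6 were higher and 2 lower at E10.5 in WT, and 3 higher and 3 lower in *Dyrk2*-/-. In *Dyrk2*-/- 7 were higher and 1 lower under the spike-in scaling, and 5 and 2 without scaling. Of 32910 probes 16234 were higher and 1364 lower under the spike-in scaling, and 9151 and 2330 without scaling. *Cspg4*, *Kcnj8* and *Abcc9*, found on pericytes, were 6.87-fold, at least 6.03-fold and at least 6.85-fold higher at E10.5 in WT, and 3.09-fold, at least 2.16-fold and at least 4.30-fold higher in *Dyrk2*-/-. *Rgs5*, another pericyte gene, was 1.56-fold lower at E10.5 in WT and 2.59-fold in *Dyrk2*-/-, and the endothelial *Tek* was called lower in both (1.82-fold in WT). At E8.5, 8 of 8 measured genes of the list were above 0 in the ratio of the mutant-labelled array to WT (median 0.24), with *Cspg4* 1.84-fold higher, and the sign of the median changed with the scaling. At E10.5, *Kcnj8* and *Rgs5* were 2.27-fold and 1.55-fold lower on the mutant-labelled array, which was 2 of 10 genes of the list, 1 under the spike-in scaling and 0 under normexp, and *Cspg4* was not called at E8.5 under these scalings. Of 14 skeletal muscle genes 12 were measured at E10.5, of which 8 were higher with stage in each genotype, 1 lower in WT and 2 lower in *Dyrk2*-/-. Between the genotypes 4, *Myod1*, *Myh3*, *Myf6* and *Mylpf*, were lower on the mutant-labelled array at E10.5. Under normexp 6 were higher with stage in WT and 3 in *Dyrk2*-/-, and from 2 (normexp) to 6 (no scaling) were lower between the genotypes at E10.5. The summed scaled intensity of that list at E10.5 was 17.2 in WT and 11.3 in *Dyrk2*-/-. Markers of tissue around the embryo were read as well. At E8.5, 6 of 8 genes of visceral yolk sac endoderm were lower on the mutant-labelled array, from 4 (normexp) to 8 (no scaling and spike-in) by scaling. Of 32015 probes 4723 were lower without scaling and 14461 under the spike-in scaling. At E10.5, 0 of 7 were lower, and 3 without scaling. Summed scaled intensities were 51.0, 33.1, 20.8 and 17.2 on the 4 arrays. The brightest probe was that of *Rbp4* at E8.5 and of *Afp* at E10.5, where *Afp* gave 16.4 and 13.6 of the sums. With stage 7 of 8 were lower in each genotype, with medians of −4.19 and −3.73 when dim probes are set at their bound, and 7 fell and 1, *Afp*, rose in limma. Of 9 decidua and trophoblast genes on the array 2 were higher (*Prl3d1* and *Prl8a2*) and 1 lower (*Pgr*) on the mutant-labelled array at E8.5, with sums of 0.461, 0.845, 0.448 and 0.421 and *Cts8*, *Ctsj*, *Prl3c1* and *Tpbpa* below background on all. Their part in the members' values was not tested.

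The genes closest to the mean profile of the 9 members over the 4 arrays were found among 14570 others well above background on all of them. The mean of the members, centred per gene, was 0.26 and 0.37 on the WT and *Dyrk2*-/- arrays at E8.5, then −0.32 and −0.31 at E10.5. The closest was *Dyrk3*, with a root mean square difference of 0.0063 and centred values of 0.27, 0.36, −0.31 and −0.31. It was followed by *Chpf*, *AI854703*, *Dmac2l*, *Tmco4*, *Carmn*, *Noc4l* and *6030458C11Rik*, at up to 0.0172. The ranking rests on 4 values for each gene. These differences are smaller than the median SD between repeated spots (0.07 to 0.12), so the order is not read as a result.

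Of the 9 members, 5 have a window of 250 bases upstream of the RefSeq start (*Acta2*, *Cnn1*, *Des*, *Mylk* and *Smtn*, build GRCm38.p6), read here for the letters that factors of this pathway bind. The CArG box, on both strands, was in 0 of the 5 windows and in 1.47% of 32851 windows of the same length. With up to 1 base other than A or T in its middle, a form chosen after the strict search was seen, it was found in 1 of the 5 windows, that of *Acta2*, and in 8.59% of all. There were 2 such runs in *Acta2*, CCCTATATGG at 84 to 75 and CCTTGTTTGG at 34 to 25 bases upstream. The forkhead letters GTAAACA and the Gli letters GACCACCCA were in none of the 5 windows and in 3.17% and 0.225% of all. The *Acta2* window (chr19:34255374-34255623 of GRCm38.p6, minus strand) is shown since it alone held such runs, which are in capitals.
*Acta2* upstream window: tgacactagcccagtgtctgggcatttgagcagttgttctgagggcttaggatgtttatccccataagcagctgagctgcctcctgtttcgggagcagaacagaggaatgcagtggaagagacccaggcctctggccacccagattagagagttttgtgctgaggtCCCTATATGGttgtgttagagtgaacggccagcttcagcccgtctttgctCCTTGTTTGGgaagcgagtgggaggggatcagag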

How the data were processed

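Each array has 62976 spots, 59305 of them not controls. The intensity in the scanner files, as the authors deposited them, is linear, background-subtracted and unscaled between arrays. Their header names Feature Extraction 10.7.1.1, while the submitters' processing notes name 9.5.1.1. A deposited table with equal distributions of the arrays served as an alternative.

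Outlier spots were dropped, log2 intensities were averaged for each probe, and the array's 75th percentile was subtracted. From 30226 to 31943 probes per array were well above background, 0 spots were saturated, and precision was limited by the number of arrays. Symbols came from RefSeq accessions (32993 matched, 1535 renamed) and positions from the mm9 array annotation. No mm9 gene models were at hand, so placement of a probe in coding sequence was judged from its translation. Where a probe was too dim on an array, "or more" and "at least" give a fold against the larger of its value there and the lowest detected value of that array, and calls ignored this bound. The limma 3.58.1 model had genotype and stage terms (eBayes with trend, two-sided, 1 residual degree of freedom), used probes detected on 2 or more arrays and adjusted by Benjamini-Hochberg over all of them.

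Alternatives were quantile normalization, no scaling, spike-in scaling (7 of 10 control probes), normexp with an offset of 50, the deposited values, other filters, the mean over probes, a 2-fold threshold, limma without the trend and, added after the data were seen, bounds in place of values. The genes named are all members, *Dyrk2*, the actins, *Srf*, *Mrtfa*, *Mrtfb*, *Foxf1* and the 8 closest profiles. Also named are, for each list and comparison, up to 4 called genes with the largest change, of which a selection is printed. The brightest or absent genes of a list are given too. *Xist* was chosen after its values were seen. A marker gene and a probe sequence are not reported here. The members and lists were chosen with earlier results of these data known. Software was R 4.3.3 with data.table (1.17.8) and Python 3.11.15 with matplotlib 3.10.9, pandas 2.3.3 and numpy 2.4.6.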

Additional observations from a re-analysis of the deposited data

Results flagged for a closer look

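*Myh11* and *Myocd* were singled out because their brightest probes moved in opposite directions between the genotypes at the 2 stages, each by more than 0.12, the largest median SD between spots, which leaves out the variation between embryos. *Myh11* was read here at its cDNA clone probe alone. The log2 ratio of *Dyrk2*-/- against WT at E10.5 minus the same at E8.5 was −0.62 for *Myh11* (0.45 at the earlier and −0.18 at the later stage) and 0.74 for *Myocd* (−0.19 and 0.55). With 1 array per group this was not tested, and the limma fit counts the same difference as its residual. For *Myocd* the signs at both stages were the same under all 6 scalings, with −0.74 and 0.71 under the spike-in scaling. For *Myh11* the ratios under that scaling were −0.0996 and −0.0141, so that the opposite directions were lost.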

How the results depend on the processing

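Without scaling between arrays the median log2 ratio of all probes shifted by −0.26 and −0.13 (*Dyrk2*-/- against WT at E8.5 and E10.5) and by 0.18 and 0.31 (E10.5 against E8.5 in WT and *Dyrk2*-/-), and under the spike-in scaling by −0.55, 0.16, −0.07 and 0.64. In this order of comparisons, the members' medians became −0.0893, −0.14, −0.16 and −0.31 without scaling, and −0.38, 0.16, −0.41 and 0.018 under the spike-in scaling, of which that in WT between stages moved by less than the spread between spots. Without scaling 2 members were called between stages in *Dyrk2*-/-, and under the spike-in scaling 2, 1 and 3 were called at E8.5, at E10.5 and between stages in *Dyrk2*-/-, of the last *Acta2* and *Myocd* lower and *Des* higher (0.71). *Myh11* between stages in *Dyrk2*-/- reversed under the spike-in scaling, to 0.018. Under quantile normalization and in the deposited table the median between stages in WT was −0.12, and under normexp that in *Dyrk2*-/- was −0.46. With the mean over probes the E8.5 median was 0.0103 with 2 members called, *Acta2* lower (−0.64) and *Myh11* higher. Both means include a probe detected on 1 array of the pair alone and are not read as a difference. That probe was at −2.42 (bound −1.97) for *Acta2* and 2.54 (bound 1.08) for *Myh11*. *Cnn1* between stages in *Dyrk2*-/- was 1.5-fold or more lower under 2 of 6 scalings. At 2-fold 2 members were called between stages in *Dyrk2*-/-.

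Counts of called probes, 3786, 2628, 11970 and 10340 in the same order, were 14881 at E8.5 and 17598 between stages in *Dyrk2*-/- under the spike-in scaling; 782, 421, 6408 and 4757 under normexp; 2202 and 1311 at E8.5 and E10.5 with a filter on both arrays; 10523, 8138, 18394 and 16733 without a filter; and 1354, 925, 6169 and 5196 at 2-fold. The share of calls that were lower, 53.4%, 52.8% and 48.7% at E8.5, E10.5 and between stages in WT, was 85.4%, 70.6% and 32.8% without scaling and 97.2%, 28.7% and 55.5% under the spike-in scaling; in *Dyrk2*-/- between stages it was 7.75% under the spike-in scaling. With the 75th percentile it was 45.7% there, and without scaling 20.3%.

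Limma's genotype calls, 6 probes, numbered 29 under quantile normalization, 729 without scaling, 37 under the spike-in scaling, 25 under normexp, 40 in the deposited table, 10 with a filter on all arrays, 564 without a filter and 0 without the trend (1635 at an unadjusted p under 0.05). Its stage calls, 11397 probes (55.6% lower), were 2633 (20.4%) under the spike-in scaling and 6437 (44.7%) without the trend, and 25.6% of 11768 were lower without scaling. Under the spike-in scaling *Acta2*, *Actg2*, *Tagln* and *Cnn1* lost the call. The stage ratios of *Acta2* there were −1.25 in WT and −0.70 in *Dyrk2*-/-, past 1.5-fold as under all 6 scalings. Those of *Actg2* were −0.62 and −0.15, those of *Cnn1* −1.11 and −0.03, and *Tagln* between stages in *Dyrk2*-/- turned to 0.28. *Tagln* also lost the call under quantile normalization, without scaling, in the deposited table and without the trend, and *Actg2* without the trend. *Des* was called without scaling and *Smtn* without a filter. The causes were not tested. No paired analysis was possible because the labels number no replicates and each group has 1 array.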
